A study of Mus musculus with 28 samples.

Results

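The comparison described here is the response of the mouse spleen to lipopolysaccharide (LPS) in the experiment that held wild-type mice alone, labelled ABAIMMUN05. It comprised 12 arrays of the 28 in the series. There were 8 LPS arrays, 4 from mice on a diet with abscisic acid (ABA) and 4 from mice on a control diet, and 4 NoLPS arrays, 2 on each diet. The other experiment, labelled ABAIMMUN06, had 8 wild-type arrays, with 2 in each of the 4 combinations of challenge and diet, and its wild-type values are set beside these where they bear on a result. Arrays of mice with the Pparg deletion, 8 in that experiment, are not used here. The mice called wild-type carry floxed alleles of Pparg without MMTV-Cre (PPAR g flfl; MMTV-Cre-), and all 20 wild-type arrays share these alleles. Age, sex, LPS dose and the time between challenge and sampling are not given in the sources used here. RNA came from spleen, described in the labels as splenocytes and as homogenised tissue, and was biotin-labelled for a 1-colour array of 45101 probe sets. The question was which spleen transcripts change when mice are challenged with LPS, with the diets pooled and diet kept as a term of the model.

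LPS is the outer membrane lipid of Gram-negative bacteria. It is bound by CD14 and by the TLR4 and MD-2 (Ly96) complex, which signals through MyD88 to NF-kB and through TRIF to IRF3 and type I interferon. In the spleen, red pulp macrophages recycle iron from old red cells, sinusoids and stroma shape the tissue, white pulp holds B and T cells, and in mice the red pulp also makes red cells. RNA of whole spleen reports all of these at once, so fewer cells of a type and less RNA per cell cannot be told apart.

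The values are the authors' log2 GCRMA values, 1 for each probe set and array. Each gene was followed through the probe set of highest mean among those that name it alone. Between 40.1% and 41.9% of the probe sets of an array sat at a common lowest value of 2.29, and a value within 0.5 of it is called near the lowest, which gives only a bound. Where all arrays of 1 group were near it, "at least" gives the distance of the other group's mean from 0.5 above it, without sampling error. Some probe sets repeat a value above the common lowest, such as 2.48 for Cela3b on most arrays, and a repeated low value may likewise be only a bound. The 12 arrays correlated with one another at 0.952 to 0.997, and precision is limited by how few arrays there are. Nothing in the labels states that each array is a different animal, and the p-values therefore reflect the spread among arrays, which may be technical. After a change, ± is the standard error (SE) of the model, and after a level it is the SD (n = 8 LPS and n = 4 NoLPS). Called means a Benjamini-Hochberg adjusted p under 0.05 in limma over the 11586 genes tested, and "rose" and "fell" are used of called genes.

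Markers on the arrays bore out spleen as the tissue, with B cell genes averaging 8.24 to 9.12 with LPS and 8.39 to 9.39 without, T cell genes 7.12 to 7.78 with LPS and 7.06 to 8.08 without and splenic macrophage genes 6.85 to 7.59 with LPS and 7.62 to 8.01 without. Genes of liver averaged 2.4 to 2.5 with LPS and 2.42 to 2.78 without. Pancreatic exocrine genes stood out on 2 arrays, averaging 6.58 on replicate 2 with LPS and 8.65 on replicate 1 without, both on the control diet, while no other array averaged over 2.57. Cpb1, a pancreatic carboxypeptidase, read 9.25 and 11.1 on these arrays and 2.29 on the other 10. Adipocyte genes were higher on 4 arrays, where Adipoq, an adipocyte hormone, read 4.13 (ABA diet, LPS, replicate 3), 5.78 (control diet, LPS, replicate 1), 5.32 (ABA diet, NoLPS, replicate 1) and 4.03 (control diet, NoLPS, replicate 1), against at most 2.32 on the other 8. Erythroid genes averaged 4.47 to 5.93 with LPS and 5.31 to 9.57 without, and the 9.57 belonged to replicate 1 of the ABA diet without LPS. Xist, transcribed from the inactive X chromosome, was high on all 12 arrays, between 10.4 and 12.6.

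**Figure D1:**
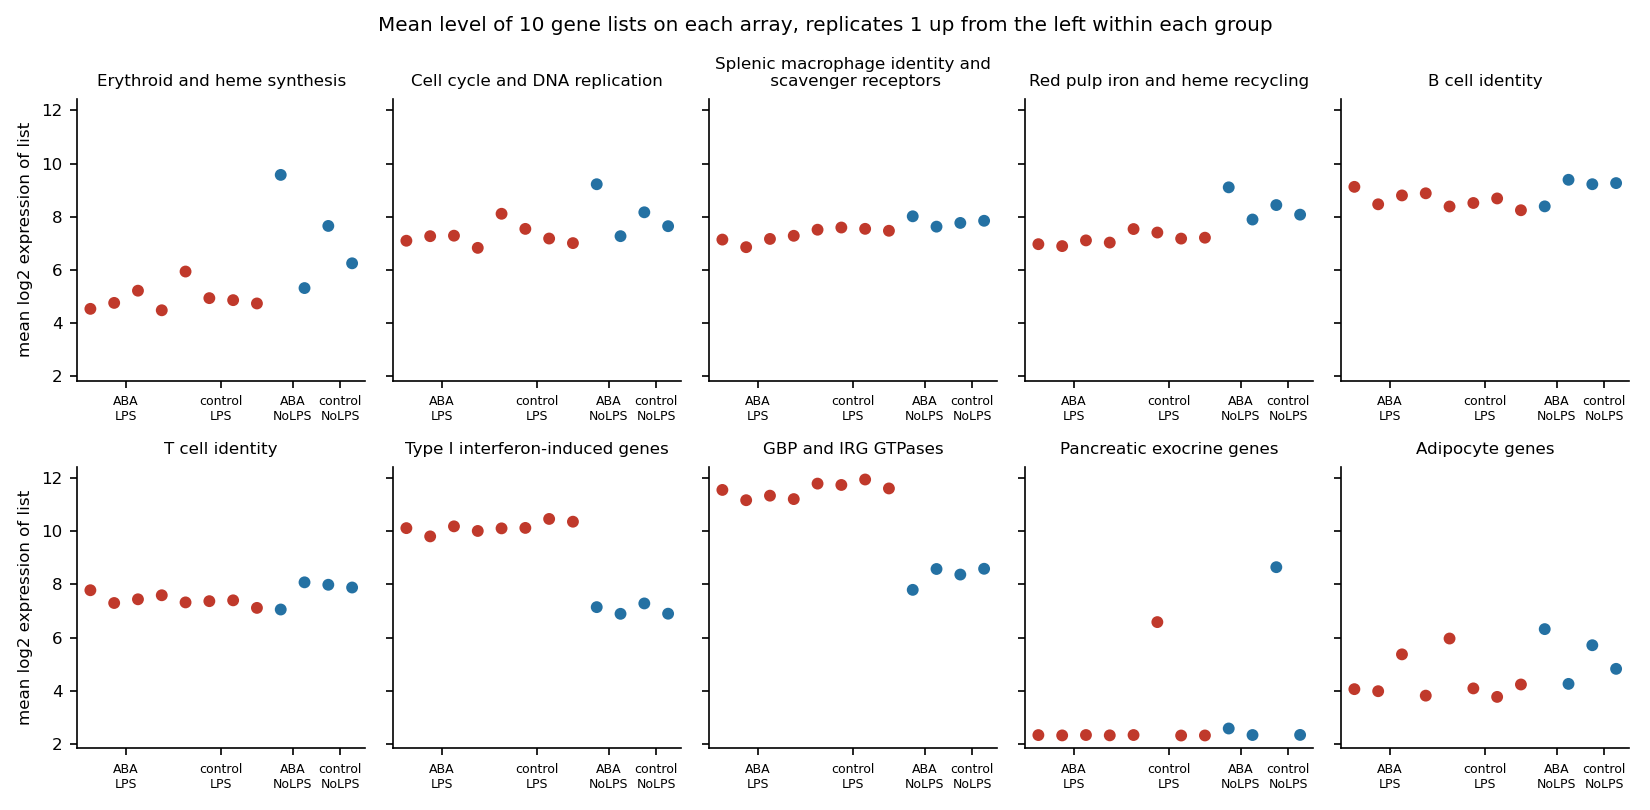
Mean log2 expression of 10 gene lists (y axis) on each of the 12 arrays (x axis, by diet and challenge, red LPS and blue NoLPS). The type I interferon list lies between 9.81 and 10.5 with LPS and between 6.89 and 7.28 without, while pancreatic genes are high on 1 array of each kind and erythroid genes spread widely among the NoLPS arrays.

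LPS changed the level of 3319 of the 11586 genes tested, 28.6% of them. Of these, 1831 rose (15.8%) and 1488 fell (12.8%), and 833 rose and 588 fell by at least 1 log2 unit (12.3% of genes in both directions together). Of the rises 44 were near the lowest on all 4 NoLPS arrays, and of the falls 189 were near it on all 8 LPS arrays. Among those falls 77 were under 0.5 log2 units, and 24 falls were near the lowest on all 12 arrays, where no change could be measured. Changes under 0.5 log2 units made up 272 of the rises and 346 of the falls. Counts of called list members below are to be read beside the 28.6%. The largest changes were upward, with 49 genes rising and 9 falling by at least 4 log2 units. The 8 LPS arrays did not overlap the 4 NoLPS arrays in 1180 of the rising and 780 of the falling genes, and such separation, called or not, was seen in 18.3% of all genes tested. Without the 2 arrays rich in pancreatic genes 950 genes fell, and without the 4 with high Adipoq 997 rose and 971 fell. The first set holds 1 of the 4 NoLPS arrays and the second 2 of them. A call lost in these fits may therefore reflect fewer arrays alone, which was not tested. The median change over all genes tested was -0.0019. When each array was centred on its median this became 0.109, and the balance of calls shifted to 3229 rising and 1156 falling. Relative to the values as deposited, the excess of rising genes thus depends on the scaling, while with quantile normalisation 52.2% of calls were rises, against 55.2% as deposited.

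**Figure D2:**
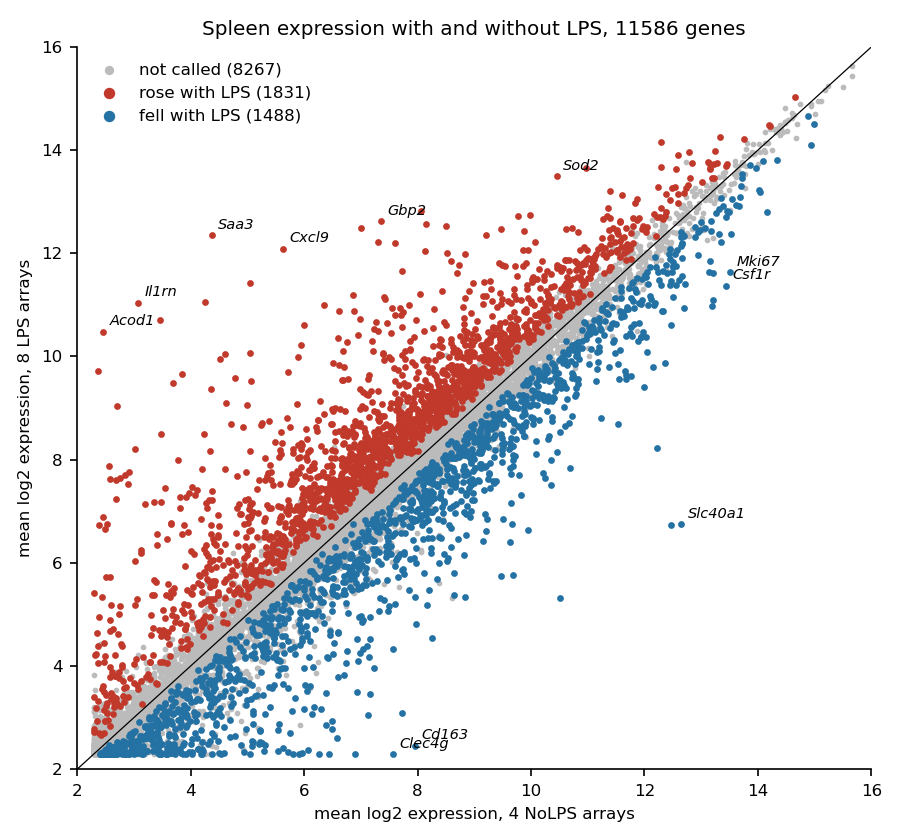
Mean log2 expression of 11586 genes on the 8 LPS arrays (y axis) against the 4 NoLPS arrays (x axis), with the line of equality. Red genes rose and blue genes fell (adjusted p under 0.05), with Acod1, Il1rn and Saa3 farthest above the line and Slc40a1, Cd163 and Clec4g among those farthest below it.

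The strongest riser was Acod1, the enzyme that makes itaconate from cis-aconitate in activated macrophages. It read 9.33 at the lowest, 10.60 at the median and 11.09 at the highest on the LPS arrays, against 2.32 and 2.82 on the ABA diet and 2.39 and 2.29 on the control diet on the NoLPS arrays. Every LPS array lay far above every NoLPS array, and 3 of the 4 NoLPS values were near the lowest. The change was 8.02 ± 0.27 log2 units (adjusted p = 4.69e-08, limma). Il1rn, the secreted antagonist of the interleukin-1 receptor, read 10.09 at the lowest, 11.20 at the median and 11.62 at the highest with LPS, against 3.03 and 3.41 on the ABA diet and 3.06 and 2.77 on the control diet without. It rose by 7.98 ± 0.28 (adjusted p = 5.12e-08, limma). Saa3, an acute phase apolipoprotein made locally by macrophages and stroma, read 11.50 at the lowest, 12.32 at the median and 13.21 at the highest with LPS, against 5.88 and 4.28 on the ABA diet and 4.18 and 3.13 on the control diet without. Its NoLPS values were more scattered than those of Acod1 and Il1rn and still did not reach the LPS range. Saa3 rose by 7.98 ± 0.48 (adjusted p = 1.83e-06, limma).

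Gzmb, the granule protease of cytotoxic cells, averaged 10.71 ± 0.57 with LPS and 3.46 ± 0.14 without, a rise of 7.26 ± 0.23. Mmp13, a collagenase, was near the lowest value on all 4 NoLPS arrays and read 7.87 at the lowest, 9.68 at the median and 11.03 at the highest with LPS, so its rise was at least 6.93 log2 units. Timp1, an inhibitor of such proteases, was near the lowest on the same 4 arrays and rose by at least 5.08. Adamts4, an aggrecanase, rose by 5.81 ± 0.20, and Ms4a6d, a membrane protein of myeloid cells, by 6.38 ± 0.35. These genes, 4 CXC chemokines and 3 interferon-induced genes described with their families made up the 15 largest rises among named genes whose groups did not overlap. Each of the 15 stayed called with any 1 array left out.

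**Figure D3:**
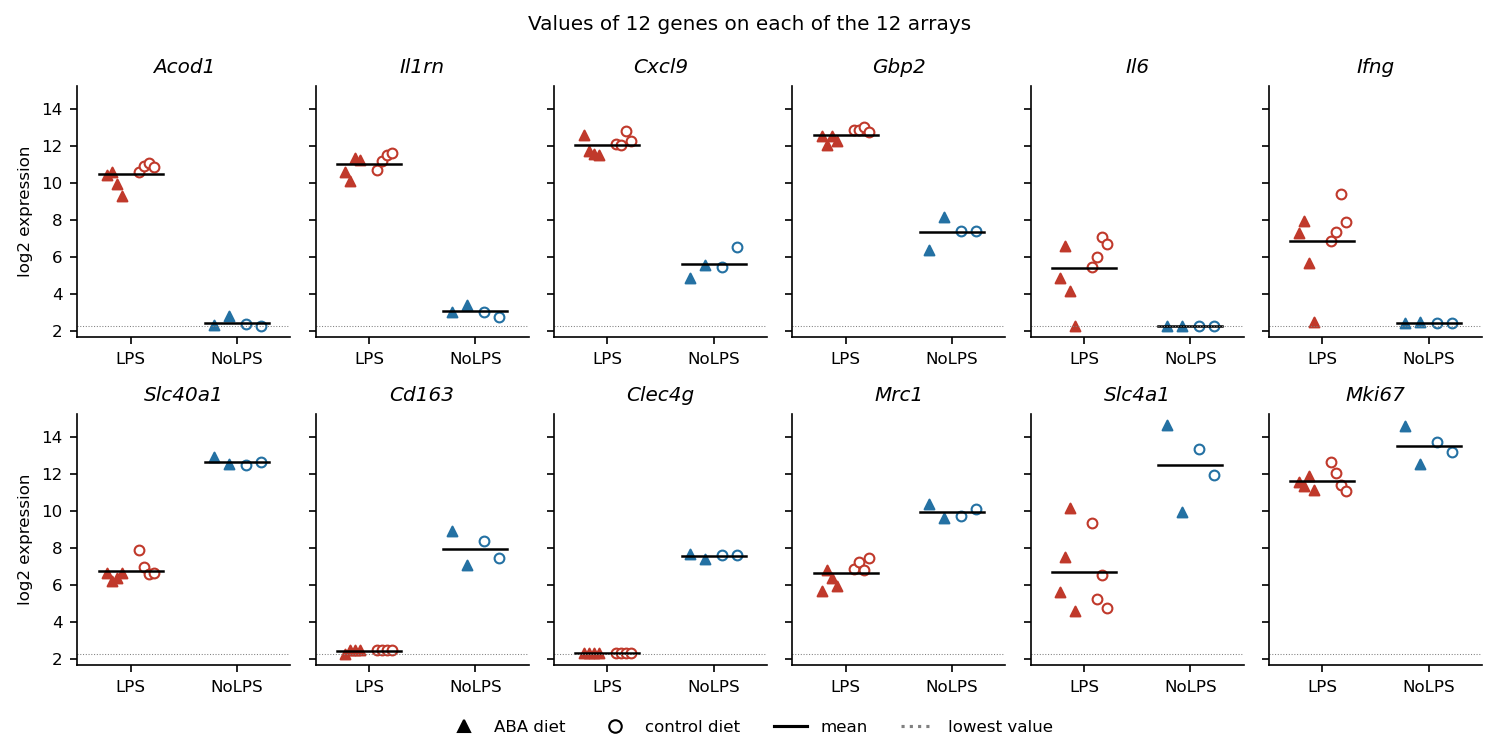
Log2 expression (y axis) of 12 genes on each array, LPS in red to the left and NoLPS in blue to the right, with ABA diet as filled triangles, control diet as open circles, bars at the mean and a dotted line at the lowest value, 2.29. The first 4 genes lie higher on all 8 LPS arrays, Il6 and Ifng fall to near the lowest on 1 LPS array, and Slc40a1, Cd163, Clec4g and Mrc1 lie lower on all 8.

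Genes of LPS recognition did not move as a block. Of 22 tested members of the sensing list, 9 rose and 1 fell, with a median change of 0.45. Cd14, the co-receptor that hands LPS to the TLR4 complex, read 6.23 at the lowest, 7.94 at the median and 8.37 at the highest with LPS, against 2.95 and 2.81 on the ABA diet and 2.81 and 2.81 on the control diet without, and rose by 4.87 ± 0.32. Tlr4 itself read 5.66 at the lowest, 6.88 at the median and 7.43 at the highest with LPS and 7.17 and 7.33 on the ABA diet and 7.71 and 8.01 on the control diet without, and its change of -0.72 ± 0.29 did not pass the test (adjusted p = 0.0953, limma). The adaptor Myd88 rose by 1.77 ± 0.22, the kinase Map3k8, which carries the signal to ERK, by 2.41 ± 0.27, and Tlr3, the receptor for double-stranded RNA, by 1.07 ± 0.10. Cd180, a TLR4-related receptor of B cells, fell by 1.18 ± 0.25.

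The NF-kB list rose more evenly, with 13 of 21 tested members up, none down and a median of 0.92. Tnfaip3, the A20 enzyme that ends NF-kB signalling, averaged 11.62 ± 0.30 with LPS and 8.70 ± 0.55 without, a rise of 2.92 ± 0.20. Over all its probe sets the mean rise was 1.58. Tnip1, a partner of A20, rose by 1.54 ± 0.16, and Nfkbiz, an IkB protein of the nucleus needed for secondary response genes, by 2.29 ± 0.24. Birc2, a ubiquitin ligase of the pathway, rose by 1.26 ± 0.11, and the subunit Relb by 1.23 ± 0.14. Feedback outside this list included Socs3, an inhibitor of STAT3 signalling, which rose by 3.46 ± 0.25, and Socs2, which rose by 2.93 ± 0.11 with a mean over its probe sets of 1.26. The other 7 tested members of the SOCS list held 1 called fall, Socs5, which lost its call when any of 9 arrays was left out, without the pancreas-rich pair and without the 4 arrays with high Adipoq. Dusp1, a phosphatase that switches off p38 and JNK, read 11.58 at the lowest, 11.90 at the median and 12.04 at the highest with LPS, against 9.51 and 7.48 on the ABA diet and 8.71 and 8.67 on the control diet without, and rose by 3.27 ± 0.29. Dusp16, another JNK phosphatase, rose by 3.09 ± 0.51. Of 18 tested phosphatases and mRNA decay regulators 6 rose, or 3 without the 4 arrays with high Adipoq, and none fell.

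Cytokine transcripts rose widely but not uniformly. Of 19 tested members 12 rose and none fell, with a median of 1.15. Decoys and antagonists were among the largest, with Il1r2, the decoy receptor for interleukin-1, at 7.60 ± 0.43 with LPS and 2.68 ± 0.20 without, a rise of 4.93 ± 0.21. Il1b, the cytokine they restrain, read 6.88 at the lowest, 8.32 at the median and 9.0 at the highest with LPS, against 4.79 and 4.34 on the ABA diet and 6.30 and 4.75 on the control diet without, and rose by 3.12 ± 0.38. Il1a was near the lowest on all 4 NoLPS arrays and rose by at least 1.85.

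Il6 and Ifng were high on most LPS arrays but not on all. Il6, a fever and acute phase cytokine, read 2.30 at the lowest, 5.74 at the median and 7.08 at the highest with LPS and near the lowest on all 4 NoLPS arrays. Ifng, the macrophage-activating cytokine of natural killer and T cells, read 2.50 at the lowest, 7.34 at the median and 9.44 at the highest with LPS, against 2.43 and 2.47 on the ABA diet and 2.45 and 2.43 on the control diet without. For both genes the lowest LPS value came from replicate 4 of the ABA diet, which lay just above the highest NoLPS value. On all arrays Il6 rose by at least 2.61 and Ifng by at least 4.09. Both calls were lost without the 4 arrays with high Adipoq, and that of Il6 also without the 2 arrays rich in pancreatic genes. The changes themselves were 3.31 for Il6 and 4.64 for Ifng without the first set, against 3.11 and 4.44 with all arrays. Without the second set that of Il6 was 2.89. Il10, an anti-inflammatory cytokine, read 3.14 at the lowest, 3.28 at the median and 4.16 at the highest with LPS, against the lowest value on all 4 NoLPS arrays, and rose by at least 0.60. Tnf, the early cytokine of endotoxin shock, was near the lowest on all 12 arrays, with 2.59 as its highest LPS value and 2.30 as its highest NoLPS value, and was not called.

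Chemokines of the CXC family gave 4 of the 15 strongest rises. Of 13 tested members 8 rose and 1 fell. Cxcl9, an interferon-gamma-induced attractant of T cells, read 11.50 at the lowest, 12.09 at the median and 12.81 at the highest with LPS, against 4.88 and 5.59 on the ABA diet and 5.49 and 6.55 on the control diet without, and rose by 6.46 ± 0.28. Its relative Cxcl10 rose by 5.50 ± 0.27. The neutrophil attractants Cxcl1 and Cxcl2 rose by 6.81 ± 0.58 and 6.35 ± 0.33. Cxcl13, which draws B cells into follicles, was already high and rose by 1.25 ± 0.10, while the platelet chemokine Ppbp fell by 1.23 ± 0.28, a call lost without the 4 arrays with high Adipoq. In the CC family 6 of 12 tested members rose and 1 fell. Ccl3 rose by 3.71 ± 0.36, Ccl22 by 3.16 ± 0.45 and Ccl5 by 2.69 ± 0.19, the last reaching 13.65 ± 0.37 with LPS, against 10.96 ± 0.24 without. The single fall was Ccl6, made constitutively by mouse myeloid cells, at -1.93 ± 0.23.

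Interferon-induced genes formed the group with the highest median. Of 32 tested members of the type I interferon list 29 rose and none fell, with a median of 3.15. All 10 tested GBP and IRG GTPases, interferon-gamma-induced proteins that attack vacuoles around pathogens, rose, with a median of 3.10. These counts stood at 29 to 31 and at 10 with any 1 array left out and without the arrays rich in pancreatic genes or Adipoq. Gbp2 read 12.09 at the lowest, 12.68 at the median and 13.02 at the highest with LPS, against 6.42 and 8.19 on the ABA diet and 7.39 and 7.42 on the control diet without, and rose by 5.28 ± 0.27. Oas1a, which makes the activator of RNase L, averaged 10.29 ± 0.20 with LPS and 6.75 ± 0.037 without, and its SD without LPS was among the smallest of the group. Ifit3, an antiviral effector, rose by 4.41 ± 0.15, Oasl2 by 4.65 ± 0.15, and Usp18, the protease that removes ISG15 and damps the interferon receptor, by 5.43 ± 0.25. Oas3 was the most variable, reading 7.21 at the lowest, 10.46 at the median and 10.84 at the highest with LPS, against 6.03 and 3.31 on the ABA diet and 6.26 and 2.80 on the control diet without, and its 5.45 ± 0.82 carries the widest error of the list's leading members.

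Of the regulators, Irf7, the amplifier of interferon production, rose by 3.47 ± 0.26, Irf1 by 2.38 ± 0.28 and Irf9, a subunit of the ISGF3 complex, by 0.78 ± 0.091. Stat3, the target of interleukin-6 and interleukin-10 signals, rose by 1.63 ± 0.16. In all, 9 of 17 tested regulators rose and 1 fell, and 5 rose without the 4 arrays with high Adipoq.

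Promoters were read from RefSeq (GRCm38.p6) as the 250 bases before each gene's start. The motifs searched, on both strands, were the interferon-stimulated response element (ISRE) written as GAAA, any 2 bases and GAAA, the kB motif as GGG, any 2 bases and TTTCC, and the GAS motif as TTC, any 3 bases and GAA, and matches of different motifs could overlap. A gene with several promoters in the table was counted once, as holding a motif if any of them did. An ISRE was held by 6 of 7 GBP and IRG genes in the table and by 8 of 25 type I interferon genes, against 3.35% of the 9346 tested genes in it. Taken singly, 2.98% of all 32851 promoters held one, 1.41% a kB motif and 7.02% a GAS motif. Among genes that rose by at least 1 log2 unit 6.95% held one (n = 676), and among genes that fell by as much 3.39% did (n = 472). A kB motif was held by 5 of 18 genes of the NF-kB list, by 3.11% of the rising genes and by 1.27% of the falling genes, against 1.83% of tested genes. The GAS motif was held by 11.5% of rising genes and 5.93% of falling genes, against 7.23% of tested genes. The last 150 bases before the start are shown for the 3 interferon-induced genes that rose most and hold an ISRE, and for Tnfaip3, the most strongly rising NF-kB list member with a kB motif, on chromosomes 5, 3, 19 and 10. Capitals mark the ISRE in the first 3 and the kB motif in the fourth, on either strand.
Oas3, chr5:120777660-120777809, minus strand: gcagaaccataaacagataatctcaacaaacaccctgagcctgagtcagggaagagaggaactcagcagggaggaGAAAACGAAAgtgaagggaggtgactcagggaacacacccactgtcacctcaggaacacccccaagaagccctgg
Gbp2, chr3:142620513-142620662, plus strand: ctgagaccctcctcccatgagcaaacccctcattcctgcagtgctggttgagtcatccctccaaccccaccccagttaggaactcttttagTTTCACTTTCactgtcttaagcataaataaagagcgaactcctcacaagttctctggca
Ifit1, chr19:34640739-34640888, plus strand: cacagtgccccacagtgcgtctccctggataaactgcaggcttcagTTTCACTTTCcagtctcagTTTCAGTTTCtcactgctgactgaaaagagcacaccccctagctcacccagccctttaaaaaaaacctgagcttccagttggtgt
Tnfaip3, chr10:19015411-19015560, minus strand: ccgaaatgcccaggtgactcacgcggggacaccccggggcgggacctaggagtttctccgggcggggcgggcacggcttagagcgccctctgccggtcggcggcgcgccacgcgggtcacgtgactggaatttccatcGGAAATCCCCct
Oas3 holds its ISRE 75 to 66 bases before the start, Gbp2 59 to 50 bases before and Ifit1 at 2 places, 104 to 95 and 85 to 76 bases before. In Tnfaip3 the kB motif lies 12 to 3 bases before the start. Ifit1, a relative of Ifit3, rose by 4.92 ± 0.24. A match describes the letters alone, and nothing here measured a factor bound to them.

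**Figure D4:**
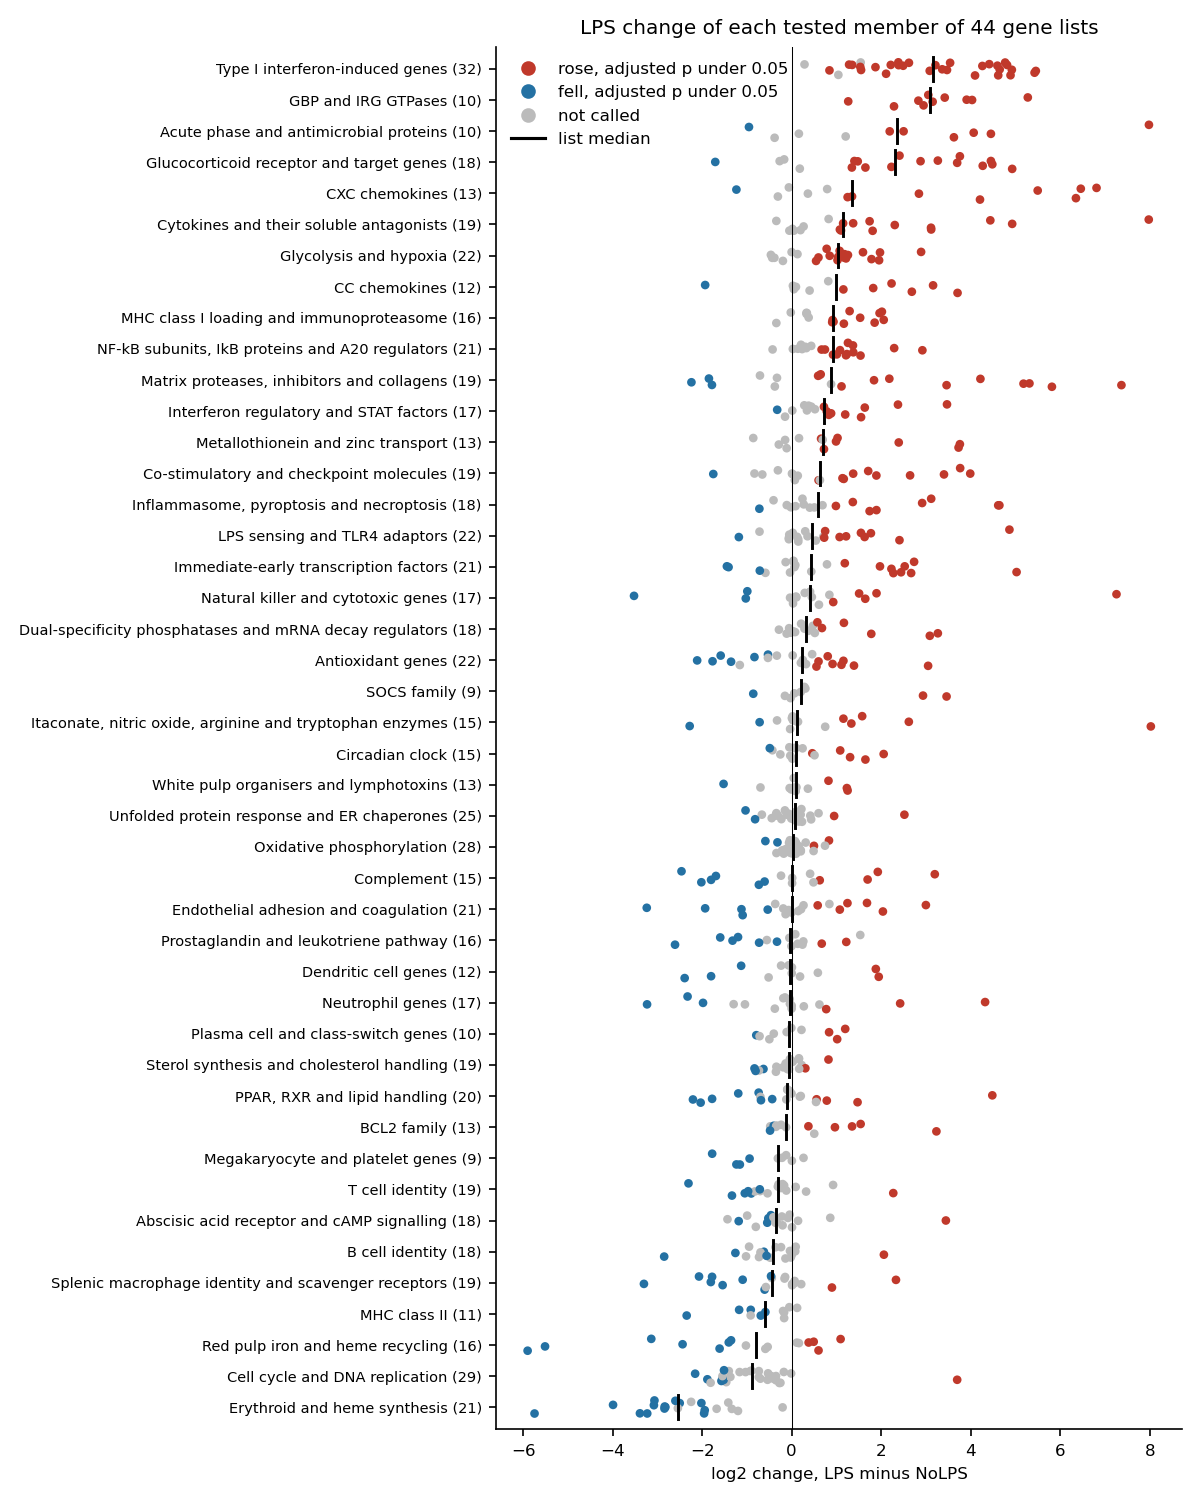
Log2 change with LPS (x axis) of each tested member of 44 gene lists (y axis, number of tested members in brackets), red where it rose, blue where it fell and grey where it was not called, with a bar at the list median. Interferon-induced genes lie farthest to the right and erythroid genes farthest to the left, while oxidative phosphorylation genes gather around 0.

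Antigen presentation split by class. In class I loading and the immunoproteasome 10 of 16 tested members rose and none fell. Nlrc5, the transactivator of class I genes, rose by 1.85 ± 0.17, Psme1, a subunit of the PA28 proteasome activator, by 1.53 ± 0.14, Psmb10, a catalytic immunoproteasome subunit, by 0.91 ± 0.10 and Tap1, a subunit of the peptide transporter, by 2.02 ± 0.15, though by 0.50 in the mean over its probe sets. Class II genes fell or were not called, with 5 of 11 tested members down and none up. H2-Ob, a subunit of the H2-O protein that restrains peptide loading, averaged 9.80 ± 0.76 with LPS and 12.15 ± 0.23 without, a fall of 2.35 ± 0.34. The classical genes H2-Aa, H2-Ab1 and H2-Eb1 changed by -0.59, -0.69 and -0.91. The class II count was 1 without replicate 2 of the control diet without LPS, 2 without replicate 1 of that group, 3 without replicate 2 of the ABA diet without LPS and 1 without the 2 arrays rich in pancreatic genes. Without the 4 arrays with high Adipoq, 2 class II genes fell and 6 class I genes rose. In the other experiment 10 of the 16 class I genes rose and none of the 11 class II genes was called, with a class II median of -0.10. No class II gene was called in the test of the difference between experiments.

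Co-stimulatory and checkpoint molecules rose in 10 of 19 tested members and fell in 1, or in 3 without replicate 1 of the ABA diet without LPS and in 3 without the 4 arrays with high Adipoq. Cd274, the PD-L1 ligand that restrains T cells, read 9.78 at the lowest, 10.32 at the median and 10.95 at the highest with LPS, against 6.31 and 7.15 on the ABA diet and 6.72 and 6.18 on the control diet without, and rose by 3.76 ± 0.23. Cd86, a ligand that activates T cells, rose by 2.65 ± 0.22, and Tnfrsf9, the 4-1BB receptor of activated lymphocytes, by 3.99 ± 0.27 (1.95 over its probe sets). Havcr2, a receptor of exhausted T cells and of macrophages, was near the lowest on all 8 LPS arrays and fell by at least 1.34.

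Acute phase and antimicrobial genes rose in 6 of 10 tested members. Besides Saa3 these included Serpina3n, a protease inhibitor, at 3.62 ± 0.47, Cp, the copper oxidase ceruloplasmin, at 2.19 ± 0.16, and Steap4, a metalloreductase, at 4.07 ± 0.53 (2.05 over its probe sets). The lysozyme gene Lyz2 fell by 0.95 ± 0.21. Metallothioneins, which bind zinc, rose strongly, with Mt2 at 10.73 ± 0.28 with LPS and 6.98 ± 0.58 without and a change of 3.76 ± 0.24. Mt1 rose by 3.73 ± 0.29, or by 1.91 over its probe sets. The zinc importer Slc39a10 rose by 2.39 ± 0.25. In the list of itaconate, nitric oxide, arginine and tryptophan enzymes 5 of 15 tested members rose and 2 fell. The arginine transporter Slc7a2 rose by 2.62 ± 0.26 (1.30 over its probe sets) and Arg2, a mitochondrial arginase, by 1.58 ± 0.22. The falls were those of Kynu and Kmo, enzymes of tryptophan breakdown, by 2.28 ± 0.57 and 0.72 ± 0.19, and both calls were lost without the pancreas-rich pair and without the 4 arrays with high Adipoq.

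Genes of inflammasomes, pyroptosis and necroptosis rose in 8 of 18 tested members and fell in 1. Zbp1, the sensor of Z-form nucleic acids, and Mlkl, the executor of necroptosis, rose by 4.62 ± 0.20 and 4.64 ± 0.28. Casp4, the mouse caspase-11 that binds LPS in the cytosol, averaged 10.45 ± 0.25 with LPS and 7.54 ± 0.68 without, a rise of 2.92 ± 0.26. Naip5, an inflammasome sensor of bacterial flagellin, fell by 0.72 ± 0.087. In the BCL2 family 5 of 13 rose and 2 fell, or 1 without the pancreas-rich pair. The rises included the BH3-only killers Bcl2l11 at 1.54 ± 0.14 (0.90 over its probe sets) and Pmaip1 at 1.35 ± 0.20. The falls were those of the survival factor Mcl1 by 0.40 ± 0.10, with another of its probe sets changing the opposite way, and of Bok, a relative of BAX, by 0.48 ± 0.13.

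Matrix genes moved in both directions. Proteases and inhibitors made up 9 of the 11 rises among 19 tested members, with Mmp3, a stromelysin, at 8.20 ± 0.47 with LPS and 3.02 ± 0.31 without. Its rise of 5.18 ± 0.11 was the one of smallest p in the list (adjusted p = 1.44e-09, limma). Among the 3 falls were Timp2, another protease inhibitor, at -2.24 ± 0.16, and Col1a2, a chain of fibrillar collagen, at -1.78 ± 0.31 (-0.88 over its probe sets). Complement showed 4 rises and 6 falls among 15 tested. Cfb, factor B of the alternative pathway, rose by 3.20 ± 0.20 and C2 by 1.70 ± 0.25, while the membrane regulator Cd55 fell by 2.02 ± 0.25 and C6, a component of the attack complex, by 2.46 ± 0.32.

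Among genes whose groups did not overlap, some of the 15 largest falls were of genes of red pulp macrophages and sinusoids. Others of the 15, not assigned to these cells here, were Apol11b (-5.18), Rnf144b (-4.07), Tmem255a (-3.98), Abcg3 (-3.92), Tmem204 (-3.73) and Cavin2 (-3.71). Gucy1a1, Kazald1, Kcnj16, Tcf21 and Efhd1, described below, were not assigned to them either. Over their probe sets Rnf144b, Tmem255a, Tmem204 and Cavin2 changed by -1.36, -0.99, -1.68 and -1.46. Slc40a1, ferroportin, the only known iron exporter of mammalian cells, read 6.24 at the lowest, 6.64 at the median and 7.87 at the highest with LPS, against 12.92 and 12.55 on the ABA diet and 12.48 and 12.65 on the control diet without. No LPS array came near the NoLPS values, and the fall was 5.90 ± 0.25 (adjusted p = 1.76e-07, limma). Cd163, the scavenger of haemoglobin and haptoglobin, was near the lowest on all 8 LPS arrays, against 8.94 and 7.08 on the ABA diet and 8.38 and 7.45 on the control diet without, so it fell by at least 5.17. Hfe, which takes part in sensing body iron, fell by 3.72 ± 0.20 (1.88 in the mean over its probe sets). In the iron and heme list 7 of 16 tested members fell and 4 rose. Cd5l, a secreted protein of tissue macrophages, fell by 2.44 ± 0.44, and Blvrb, biliverdin reductase B, by 3.14 ± 0.71. Blvrb is also abundant in red cell precursors and its call was lost without the 2 arrays rich in pancreatic genes. Fth1, the heavy chain of ferritin, rose by 0.38 ± 0.043, and Spic, the factor required for red pulp macrophages, rose by 1.09 ± 0.20. The count of falls was 6 to 8 with any 1 array left out and 4 without the pancreas-rich pair or without the 4 arrays with high Adipoq.

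Splenic macrophage genes showed 8 falls and 2 rises among 19 tested. Mrc1, the mannose receptor, read 5.68 at the lowest, 6.81 at the median and 7.45 at the highest with LPS, against 10.36 and 9.63 on the ABA diet and 9.70 and 10.08 on the control diet without, and fell by 3.30 ± 0.28. Csf1r, the receptor for the macrophage growth factor, fell by 2.07 ± 0.17, Cd36, a lipid scavenger receptor, by 1.78 ± 0.22 and Treml4, a receptor of splenic macrophages and dendritic cells, by 1.54 ± 0.15. The other 9 tested members were not called. Msr1, scavenger receptor A, rose by 2.33 ± 0.26, or by 0.71 over its probe sets. The 8 falls were 6 to 8 with any 1 array left out and 4 without the 4 arrays with high Adipoq, and the 2 rises were 1 without those arrays or the pancreas-rich pair.

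Endothelial genes were divided. Procr, the endothelial protein C receptor, averaged 12.46 ± 0.34 with LPS and 9.47 ± 0.31 without, a rise of 3.00 ± 0.15, and Icam1, a ligand for leukocyte integrins, rose by 2.04 ± 0.16. Stab2, the hyaluronan receptor of sinusoidal endothelium, read 4.11 at the lowest, 4.41 at the median and 4.46 at the highest with LPS, against 8.12 and 7.38 on the ABA diet and 7.14 and 7.59 on the control diet without, and fell by 3.24 ± 0.15. Thbd, thrombomodulin, which activates protein C together with Procr, fell by 1.93 ± 0.24. Clec4g, a lectin of sinusoidal endothelium in liver and lymph node, was near the lowest on all 8 LPS arrays and read 7.65 and 7.42 on the ABA diet and 7.60 and 7.59 on the control diet without, a fall of at least 4.77. The mean over its probe sets fell by 2.64. Tcf21, a transcription factor of splenic mesenchyme, fell by at least 3.27, and Gucy1a1, a subunit of the nitric oxide receptor, by 4.64 ± 0.26. In the endothelial list 6 of 21 tested members rose and 5 fell, or 3 without the 4 arrays with high Adipoq.

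Erythroid genes had the lowest median of any list, -2.54, with 14 of 21 tested members falling and none rising. Slc4a1, the band 3 anion exchanger of the red cell membrane, fell by 5.74 ± 1.28, yet its values were scattered in both groups. It read 4.60 at the lowest, 6.08 at the median and 10.18 at the highest with LPS, against 14.64 and 9.94 on the ABA diet and 13.34 and 11.95 on the control diet without, and the groups overlapped. Hemgn, a nuclear factor of erythroid cells, fell by 3.99 ± 0.89, Fech, the last enzyme of heme synthesis, by 2.84 ± 0.58, and Slc25a37, the mitochondrial iron importer mitoferrin, by 2.84 ± 0.53. The list's mean on replicate 2 of the ABA diet without LPS, 5.31, lay within the LPS range of 4.47 to 5.93, while replicate 1 of that group stood at 9.57. Without replicate 1 the count of falls was 8, without replicate 2 it was 17, and it was 4 without replicate 1 and 15 without replicate 2 of the control diet without LPS. With any 1 LPS array left out it was 7 to 11. It was 4 without the 2 arrays rich in pancreatic genes and 9 without the 4 with high Adipoq. No erythroid gene rose in any of these fits. The part of red cell content in other falls was not tested.

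Fewer cell cycle genes fell. Of 29 tested members 6 fell and 1 rose, with a median of -0.90. That is 24.1% called, against 28.6% of all genes. Mki67, the proliferation antigen, read 11.05 at the lowest, 11.47 at the median and 12.65 at the highest with LPS, against 14.57 and 12.54 on the ABA diet and 13.74 and 13.19 on the control diet without, and fell by 1.88 ± 0.40. With single arrays left out the 6 falls ranged from 1, without any of 6 arrays, to 10, without replicate 2 of the ABA diet without LPS. Without the pancreas-rich pair the count was 1. The rising member was Cdkn1a, the p21 inhibitor of the cell cycle, at 8.62 ± 0.29 with LPS and 4.93 ± 0.59 without, a change of 3.70 ± 0.21 (1.88 over its probe sets).

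Among B cell identity genes 4 of 18 tested fell and 1 rose, 27.8% of them called, and among T cell identity genes 6 of 19 fell and 1 rose, 36.8% called, against 28.6% of all genes. Fcer2a, the low-affinity IgE receptor CD23 of follicular B cells, read 3.09 at the lowest, 3.12 at the median and 3.49 at the highest with LPS, against 5.45 and 6.12 on the ABA diet and 6.18 and 6.26 on the control diet without, and fell by 2.85 ± 0.14. Cxcr5, the follicular homing receptor, rose by 2.06 ± 0.46, and Ccr7, which guides cells to the T zone, by 2.27 ± 0.26. Thy1 fell by 2.30 ± 0.32 and Cd4 by 1.05 ± 0.19. Without replicate 1 of the ABA diet without LPS, the array with the highest erythroid mean and the lowest B cell and T cell means of the NoLPS arrays (8.39 and 7.06), 12 B cell and 11 T cell genes fell. With any other NoLPS array left out, 1 or 2 B cell genes and 3 T cell genes fell, and the counts were 1 and 3 without the pancreas-rich pair and 2 and 3 without the 4 arrays with high Adipoq.

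Natural killer genes showed 5 rises and 3 falls among 17 tested, 47.1% called against 28.6% of all genes. Gzma, another granzyme, rose by 1.90 ± 0.20. The 5 rises became 2 without the 4 arrays with high Adipoq and 9 with each array centred on its median. S1pr5, the receptor by which natural killer cells leave tissues, read 2.60 at the lowest, 2.91 at the median and 2.91 at the highest with LPS, against 6.10 and 6.62 on the ABA diet and 6.42 and 6.37 on the control diet without, and fell by 3.52 ± 0.094. The repeated 2.91 may itself be a bound, and the SE of the fall would then be too small. Klrg1, a receptor of mature killer cells, fell by 1.03 ± 0.13. Of 17 tested neutrophil genes 3 rose and 3 fell (35.3% called). Fpr2, a formyl peptide receptor, rose by 4.32 ± 0.51, while the granule genes Ltf, Camp and Mpo changed by -2.33, -1.98 and -3.23. The calls of Camp and Mpo were lost without the 4 arrays with high Adipoq and that of Mpo without the pancreas-rich pair. Dendritic cell genes gave 2 rises and 3 falls among 12 (41.7% called). Ly75, the DEC-205 uptake receptor, rose by 1.95 ± 0.17, and Itgax, the CD11c integrin, fell by 1.80 ± 0.22. Of the remaining cell lists, 3 of 10 plasma cell genes rose and 1 fell (40% called). None of 9 megakaryocyte genes rose and 4 fell (44.4%), and 3 of 13 white pulp organisers rose and 1 fell (30.8%). Without the 4 arrays with high Adipoq, no plasma cell gene rose or fell and 1 neutrophil and 1 megakaryocyte gene fell. Without the pancreas-rich pair 1 plasma cell gene rose.

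Glycolytic genes rose together, and few respiratory chain genes were called. Of 22 tested members of the glycolysis and hypoxia list 16 rose and none fell, with a median of 1.03. Hif1a, the oxygen-sensitive factor stabilised in activated macrophages, rose by 1.97 ± 0.20. Pfkfb3, which makes the strongest activator of phosphofructokinase, averaged 10.11 ± 0.42 with LPS and 7.22 ± 0.50 without, a rise of 2.89 ± 0.17 (1.92 over its probe sets). Hk2, a hexokinase, rose by 1.78 ± 0.19. The count of rises was 14 to 16 with any 1 array left out and 10 without the 4 with high Adipoq. Of 28 tested subunits of oxidative phosphorylation 2 rose and 2 fell, with a median of 0.023, and 6 rose with each array centred on its median. Without the 4 arrays with high Adipoq 1 rose and none fell, and without the pancreas-rich pair 1 rose and 1 fell. Of 25 genes of the unfolded protein response 2 rose and 2 fell, and of 19 of sterol synthesis and handling 2 rose and 3 fell. No gene of either list rose without the pancreas-rich pair or without the 4 arrays with high Adipoq. For comparison, 28.6% of all genes tested were called.

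Glucocorticoid target genes were among the lists with most calls, 14 rises and 1 fall among 18 tested, with a median of 2.32. Several of them also stand in other lists, among them Il1r2, Mt2, Dusp1 and Cdkn1a. Pdk4, a kinase that shuts pyruvate out of the citric acid cycle, read 8.39 at the lowest, 9.33 at the median and 9.50 at the highest with LPS, against 4.34 and 3.21 on the ABA diet and 4.52 and 6.42 on the control diet without, and rose by 4.48 ± 0.39. Errfi1, an inhibitor of the EGF receptor, rose by 4.27 ± 0.18, and Per1, a clock gene with glucocorticoid response elements, by 1.65 ± 0.24, a call lost without the 4 arrays with high Adipoq. In the clock list 5 of 15 tested members rose and 1 fell, and without those arrays 2 rose and none fell. Hsd11b1, which regenerates active glucocorticoid, fell by 1.71 ± 0.18. The receptor itself, Nr3c1, changed by -0.27 ± 0.11 and was not called.

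Immediate-early factors rose in 9 and fell in 3 of 21 tested members, or fell in 1 without the 4 arrays with high Adipoq. Maff, a small Maf protein, read 7.75 at the lowest, 8.62 at the median and 9.17 at the highest with LPS, against 2.72 and 3.16 on the ABA diet and 4.28 and 3.72 on the control diet without, and rose by 5.03 ± 0.20. Cebpb, a regulator of acute phase genes, rose by 2.74 ± 0.26 (1.37 over its probe sets) and Jun by 2.53 ± 0.23. Klf4 fell by 1.45 ± 0.21 (0.73 over its probe sets). Antioxidant genes divided into 8 rises and 6 falls among 22, with 3 falls without the pancreas-rich pair and 2 without the 4 arrays with high Adipoq. Sod2, the mitochondrial superoxide dismutase, averaged 13.50 ± 0.16 with LPS and 10.45 ± 0.11 without, and rose by 3.05 ± 0.088 (adjusted p = 1.81e-08, limma). Cat, catalase, fell by 2.11 ± 0.29, and Gpx1, a glutathione peroxidase abundant in red cells, by 1.77 ± 0.43, a call lost without the pancreas-rich pair and without the 4 arrays with high Adipoq.

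Genes of PPAR, RXR and lipid handling moved in both directions, with 4 of 20 tested members rising and 7 falling. Without the 4 arrays with high Adipoq 2 rose. Pparg, the floxed gene, was near the lowest on all 8 LPS arrays and read 3.70 and 2.35 on the ABA diet and 2.87 and 2.29 on the control diet without LPS, too low for the test. Of 18 tested genes of ABA reception and cAMP signalling 1 rose and 4 fell, 27.8% called against 28.6% of all genes, and 7 fell without replicate 1 of the ABA diet without LPS. Plin2, a coat protein of lipid droplets, rose by 1.47 ± 0.15, and Rxra, the partner of PPAR receptors, fell by 0.74 ± 0.12 (0.26 over its probe sets). Mgll, monoacylglycerol lipase, fell by 2.21 ± 0.46 (0.86 over its probe sets). Lancl2, described as a receptor for ABA, read 3.85 at the lowest, 4.97 at the median and 5.49 at the highest with LPS and 6.44 and 3.86 on the ABA diet and 4.61 and 4.91 on the control diet without, and its change of -0.045 ± 0.46 was not called. Hpgd, the enzyme that inactivates prostaglandins, fell by 2.61 ± 0.16, and Ptger4, a receptor for prostaglandin E2, rose by 1.22 ± 0.11. Ptgs2, the inducible cyclooxygenase, was near the lowest on all 4 NoLPS arrays, read 2.29 at the lowest, 3.66 at the median and 6.22 at the highest with LPS, and was not called. In the prostaglandin list 2 of 16 tested members rose and 6 fell, and without the pancreas-rich pair 1 rose and 3 fell.

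A few genes were near the lowest value in 1 group and measured in the other. By the definition used, 15 genes were near the lowest on all 4 NoLPS arrays and at least 1 log2 unit above it on all 8 LPS arrays, and 28 were the reverse. Beside Mmp13, Timp1 and Il1a, the first set held Adamts9, a protease of proteoglycans, which rose by at least 3.96, and Vcan, the proteoglycan versican, which rose by at least 3.93. Avpr1a, a vasopressin receptor, rose by at least 2.94, and Aldh1a2, which makes retinoic acid, by at least 2.39. The means over their probe sets were smaller for Adamts9, Vcan and Avpr1a, at 1.87, 1.17 and 1.76. The second set held, beside Cd163, Clec4g and Tcf21, Kazald1, a secreted protein of the insulin-like growth factor binding family, with a fall of at least 4.11, Kcnj16, an inward-rectifier potassium channel, at least 3.64, Efhd1, a calcium-binding protein of mitochondria, at least 3.18, and Aplnr, the apelin receptor of endothelium, at least 3.00 (1.85 over its probe sets). In the other experiment 12 of the 15 rose and 11 of the 28 fell.

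The direction of change was the same on both diets for all 1831 rising and 1488 falling genes, as the pooled test itself favours. Fitted alone, the 4 ABA diet LPS arrays against the 2 without called 490 of the rises and 296 of the falls, and the control diet arrays 969 and 759. The test of the difference, the diet by LPS interaction, called 25 genes (0.216%), and 17 of them were near the lowest on all LPS arrays, so that they differ in their NoLPS levels. The 3 smallest p-values belonged to Mrc2, Cd209b and Arvcf. Mrc2, a collagen receptor, was near the lowest on all 8 LPS arrays and read 3.62 and 3.51 on the ABA diet and 2.56 and 2.54 on the control diet without LPS. Cd209b, the SIGN-R1 lectin of marginal zone macrophages, read 2.32 and 2.32 on the ABA diet and 3.32 and 3.18 on the control diet without LPS, and Arvcf, a junction protein, 2.34 and 2.49 on the ABA diet and 3.49 and 3.30 on the control diet. In each case the 2 arrays of 1 diet were near the lowest and those of the other read between 3.18 and 3.62. Kazald1 and Tcf21, among the largest falls, were also called. Tcf21, also near the lowest with LPS, read 5.31 and 5.65 on the ABA diet and 6.48 and 6.83 on the control diet without LPS. The number of genes called was 4 to 19 with any 1 LPS array left out and 135 to 813 with any 1 NoLPS array left out, highest without replicate 2 of the ABA diet. It was 0 when the filter on low values was set at the 60th percentile.

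The wild-type mice of the other experiment share no array with these. There limma called 914 of the 11586 genes (7.89%), 571 rising (4.93%) and 343 falling (2.96%). Of the 1831 genes that rose here, 1750 (95.6%) had the same direction there and 467 were called, and of the 1488 that fell, 1275 (85.7%) had the same direction and 205 were called. Over all genes tested 73.5% had the same direction. A gene called in both with opposite signs occurred once. Acod1 changed by 8.02 ± 0.27 here and 8.14 ± 0.23 there, Il1rn by 7.98 ± 0.28 and 8.08 ± 0.28, and Slc40a1 by -5.90 ± 0.25 and -4.88 ± 0.59. The arrays of that experiment were not alike in Xist, which was at 12.5 and 12.2 with LPS on the control diet and 12.6 on 1 array without LPS on the ABA diet, and at most 2.25 on the other 5. Its part in these values was not tested. The 914 calls were 197 to 306 without any of 5 of its 8 arrays and 1385 without replicate 2 of the ABA diet without LPS.

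The test of the difference between the 2 experiments called 369 genes (3.18%), of which 125 changed more here and 244 changed more there. Near the lowest, where no change could be measured, were 45 of them on all 12 arrays here and 40 on all 8 there. The genes of smallest p among the 369 were S1pr5, Id4, Bmper, Gucy1a1, Olfm4 and Hpgd. S1pr5 fell by 3.52 ± 0.094 here and changed by -0.0031 ± 0.016 there, a difference of -3.52 ± 0.12 (adjusted p = 1.06e-10, limma). There it read at most 2.28 on every array, and Gucy1a1 and Hpgd at most 2.34 and 2.63, so no fall could be measured. Id4, an inhibitor of bHLH factors, read 2.90 to 3.00 there, so nearly constant that it may also be a bound, and fell by 2.97 ± 0.11 here (1.49 over its probe sets). Bmper, a BMP-binding protein, and Olfm4, a neutrophil and epithelial glycoprotein, went the other way, near the lowest or not called here and rising by 2.34 ± 0.14 and 4.90 ± 0.26 there. Tnf was near the lowest on all 12 arrays here and rose by 2.38 ± 0.46 there, a difference of -2.33 ± 0.38 (adjusted p = 0.00284, limma). Adamts4 and Maff rose by 5.81 ± 0.20 and 5.03 ± 0.20 here and by 1.53 ± 0.39 and 1.16 ± 0.35 there, without a call there. Gbp6, a guanylate-binding protein, rose by 4.03 ± 0.19 here and by 7.04 ± 0.20 there. Clec4g fell by at least 4.77 here and changed by -1.04 ± 0.53 there, without a call there. The number of differing genes was 888 without replicate 2 of the ABA diet without LPS of the other experiment and 200 without the pancreas-rich pair of this one.

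**Figure D5:**
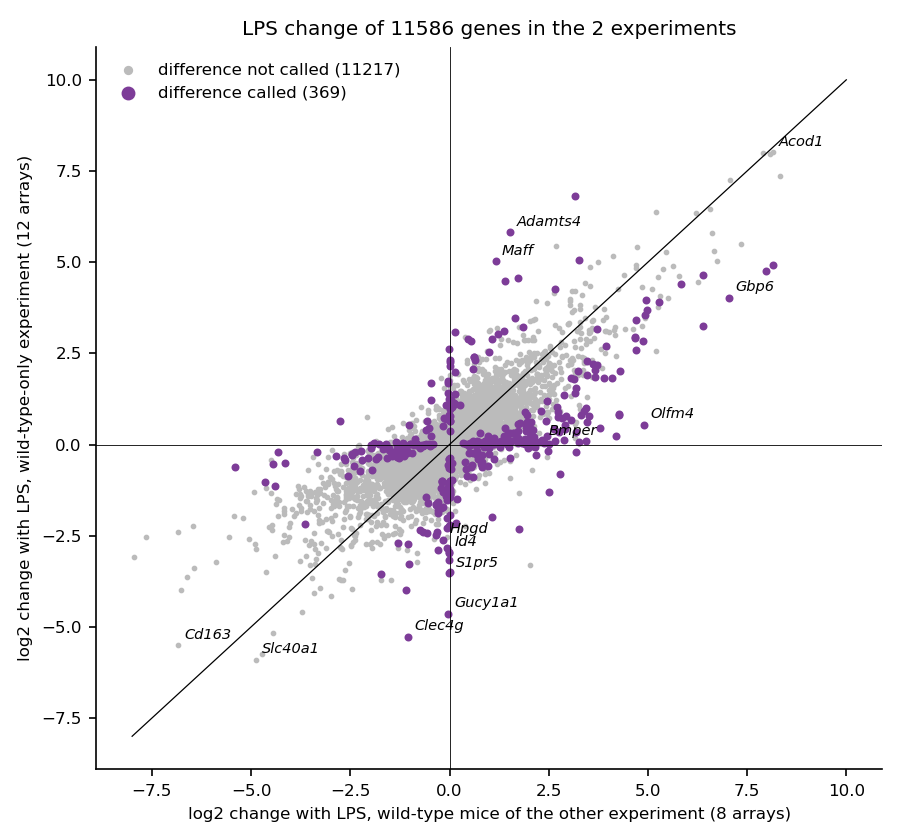
Log2 difference between LPS and NoLPS arrays of the wild-type-only experiment (y axis) against that in the other experiment's wild-type mice (x axis) for 11586 genes, with the line of equality; purple marks 369 genes whose changes differed (adjusted p under 0.05). S1pr5, Gucy1a1, Hpgd and Id4 lie low on the y axis and near 0 on the x axis, the first 3 being near the lowest value on every array of the other experiment, and Olfm4 and Bmper lie far to the right.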

How the data were processed

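Single-colour array values of mouse spleen RNA were used as the authors deposited them, on a log2 scale with 1 value for each of 45101 probe sets and each array. GCRMA and limma appear, without versions, among the tools in the submitters' processing notes, and other steps are not given in the sources used here. No array was identical to another, and no sample column was left unused. Probe sets were named through the platform annotation: 34958 named 1 gene, 932 named several and 9211 none, and only the first kind was used, giving 18194 genes, each through its probe set of highest mean. Some entries are not reported here.

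Genes at or below the 40th percentile of the array on more than 8 of 12 arrays were left out, which kept 11586. The LPS effect came from limma 3.58.1 under R 4.3.3, using lmFit and eBayes with LPS and diet as terms, with Benjamini-Hochberg adjustment over these genes. The diet by LPS interaction and the difference between experiments came from fits on 12 and 20 arrays. On simulated data for 11586 genes the LPS fit recovered 72% of 100 changed by 1 log2 unit and 95% of 100 changed by 2. It called 13 unchanged genes. Recovery of genes near the lowest value, or with RNA of other tissues on some arrays, was not tested separately. These shares therefore do not describe dim genes.

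Members and 47 gene lists were chosen with earlier results of these data known, so a list's direction is not independent evidence. Genes named came from the 15 largest rises and falls without overlap and up to 4 members each way of smallest adjusted p per list. Also used were 9 genes always given and the 6 and 3 of smallest p between experiments and between diets. The last source was the 10 largest changes switched on or off. Not every gene of the lists and switched sets is named. Immunoglobulin, T cell receptor and clone names were left out of the first part. Ifit1, Nr3c1 and Ptgs2 were chosen after their values were seen. Alternatives changed the scaling, filter, probe set rule, variance prior, weights, design and arrays. Promoter and motif shares used Python 3.11.15, pandas 2.3.3 and numpy 2.4.6, with figures by matplotlib 3.10.9.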

Additional observations from a re-analysis of the deposited data

Results flagged for a closer look

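Within groups, 122 sets of 4 or 8 values were examined for an array far from the others, and 16 held one. The limits used give about 1 in 20 for independent, normally distributed values. Many of these sets share arrays and some hold nearly equal values, so the 16 cannot be set against that share. Of the 16, 7 concerned replicate 1 of the ABA diet without LPS, the array with the highest erythroid mean. It read 6.53 for Casp4, 2.95 for Cd14, 5.45 for Fcer2a, 3.67 for Gzmb and 7.88 for Tnfaip3, and averaged 8.39 over B cell genes and 4.56 over natural killer genes. For Cd14 and Gzmb the other 3 NoLPS values were equal or nearly so. Replicate 2 of the ABA diet with LPS read 6.23 for Cd14 and 7.21 for Oas3, below the other LPS arrays, and 4.16 for Il10, above them. Other single arrays with LPS were replicate 1 of the ABA diet at 3.49 for Fcer2a, replicate 3 of that diet at 2.60 for S1pr5, replicate 1 of the control diet at 7.87 for Slc40a1 and replicate 3 of the control diet at 5.67 over natural killer genes. Pancreatic exocrine genes averaged 6.58 on replicate 2 of the control diet with LPS and 8.65 on replicate 1 of that diet without.

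The LPS response of at least 30 genes named in the report differed between the wild-type-only experiment and the wild-type mice of the other (limma, adjusted p under 0.05). The differences are given as the change in the wild-type-only experiment minus that in the other. In the type I interferon, GBP and IRG, and class I lists 6 of 32, 4 of 10 and 3 of 16 tested genes differed, against 3.18% of all genes. The medians of these 3 lists were 3.15, 3.10 and 0.93 here and 3.31, 4.01 and 1.95 there. Differing members named in the report rose in both and rose less here, with differences of -3.24 for Ifit1, -1.43 for Ifit3, -1.39 for Oas1a, -1.74 for Oasl2, -3.01 for Gbp6, -1.81 for Nlrc5, -2.28 for Tap1 and -1.40 for Psmb10. The difference was also negative for Casp4 at -1.76, Cp at -1.53, Aldh1a2 at -2.10, Tnf at -2.33, Bmper at -2.26 and Olfm4 at -4.36. Changes that were more positive here were those of Adamts4 (4.28), Maff (3.87), Cxcl1 (3.66), Pdk4 (3.10), Slc7a2 (2.63), Errfi1 (1.62) and Avpr1a (1.38). The neutrophil granule genes Ltf and Camp differed by -4.08 and -3.05, changing by -2.33 ± 0.49 and -1.98 ± 0.41 here and by 1.76 ± 0.58 and 1.07 ± 0.38 there. Genes that fell here with a negative difference were Gucy1a1 (-4.61), Clec4g (-4.23), S1pr5 (-3.52), Aplnr (-3.50), Id4 (-2.94), Hpgd (-2.45) and Klrg1 (-0.84). Of the genes in this paragraph, S1pr5, Gucy1a1, Hpgd, Aplnr and Slc7a2 were near the lowest value on all arrays of the other experiment, and Tnf and Bmper on all arrays of this one, so no change could be measured there. Clec4g and Aplnr with LPS, and Aldh1a2 and Avpr1a without, were near the lowest on all such arrays here, and Tnf and Avpr1a without LPS there, so these differences compare deposited values of which some are bounds.

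Between diets, given as the change on the ABA diet minus that on the control diet, the LPS response differed by -1.02 for Mrc2, 0.89 for Cd209b, 0.98 for Arvcf, 0.41 for Kazald1 and 1.14 for Tcf21. All 5 were near the lowest value on every LPS array, so that the differences lie in the NoLPS levels of 2 arrays per diet.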

How the results depend on the processing

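The number of arrays and the lowest value, which hides changes of dim genes, limit these results. With any 1 array left out, 1489 to 1911 genes rose, 1175 to 1508 fell, 15 to 19 were switched on, 28 to 42 switched off, and 333 to 388 list members were called, against 393 with all arrays. The other experiment's calls ranged from 197 to 1385, the experiment differences from 250 to 888 and the diet interaction from 4 to 813. With a change of at least 1 log2 unit required, 833 rose and 588 fell. Centring arrays on their medians gave 3229 rises and moved the median change to 0.109, a shift equal for all genes of an array. Averaging a gene's probe sets gave 16 genes switched off. Of 1842 called genes with several tested probe sets, 37 had an opposite one, and Mcl1 is the only such gene covered by the naming rule. Replicate numbers were not taken as pairs. The correlation of same-numbered arrays' deviations ran from -0.15 to 0.40 and exceeded 0.1 in 6 of 14 pairs, against -0.40 to 0.39 in 38 other pairs. In a NoLPS group of 2 arrays the deviations are exact opposites, so these values cannot decide whether the numbers mark pairs. With a replicate block 1137 genes rose and 776 fell, and 1 gene had a diet interaction.

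On control diet arrays alone, with fewer samples, 1067 rose, 980 fell, 29 were switched on and 67 off. On ABA diet arrays alone these numbers were 505, 312, 23 and 50, with 171 list members called. Leaving out the 2 arrays rich in pancreatic genes and the 4 with high Adipoq was chosen after seeing the data. Without the first 950 fell, 200 genes differed between experiments and 109 between diets. Without the second 997 rose, 971 fell, 24 were switched on and 52 off. The diet interaction called 8 genes with quantile normalisation, 4 with centring and 0 with the filter at the 60th percentile, against 25. Lancl2, which was not called, changed sign to 0.066 with centring, 0.30 with array weights, 0.12 with a replicate block, 0.44 on the control diet alone and 0.49 without the 4 arrays with high Adipoq, and ranged from -0.41 to 0.56 with single arrays left out. H2-Eb1 at 0.13 and Xist at 0.86 changed sign on the 20 wild-type arrays of both experiments, and the cause was not tested. The remaining alternatives kept these counts within 1.5 times.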
